A study of Mus musculus with 10 samples.

Results

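Dpy19l2, Slc17a7, Dab1, Nampt and Epdr1 are 5 mouse genes whose levels split the 10 ventricles of an aldosterone experiment into 2 sets of 5 hearts. The 5 genes were chosen by their log2 ratios in these same hearts, for exactly this split. Set A holds aldosterone hearts 3 and 5 with untreated hearts 1, 3 and 4. Set B holds aldosterone hearts 1, 2 and 4 with untreated hearts 2 and 5. Nothing in the sample labels names these sets, so what separates them was not tested. They were drawn from measured values, and every difference between set A and set B is given as a description without a test. The 5 genes carry 8 of the 39429 probes on the array, which names 20144 genes. Dab1 has 4 probes and each other gene has 1.

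Each of 5 male mice given aldosterone, the adrenal steroid that binds the mineralocorticoid receptor, provided 1 ventricle sample, as did each of 5 untreated male mice, and both groups are labelled with a duration of 7 days. Each heart sample, carrying Cy5, shared a 2-colour Agilent array with a Cy3-labelled pool of RNA from liver, brain, heart, kidney and spleen. The titles of both groups carry the tag Ctrl, a word that the design text uses for untreated mice, so it does not tell the groups apart. Genotype, strain, age, dose and route are not given in the sources used here. A log2 ratio for all 10 hearts came from the authors' deposited value table, and spot signals came from scanner files of 9 arrays, without aldosterone heart 4.

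DPY19L2 is a membrane protein of the sperm head that holds the acrosome, the enzyme cap of the sperm, to the nucleus, and male mice without it make round-headed sperm. SLC17A7 loads glutamate into synaptic vesicles of excitatory neurons. DAB1 is the adaptor protein that carries the signal of secreted reelin from its receptors into migrating neurons. NAMPT is the rate-limiting enzyme that salvages nicotinamide into NAD, the redox cofactor on which cardiac energy metabolism depends. EPDR1 is a glycoprotein related to fish ependymin that is secreted and found in lysosomes. The first 3 are best known outside the heart, from sperm and neurons.

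The promoters of the 4 genes with a single annotated start are shown so that motifs can be compared between the genes that were higher in set A, Dpy19l2 and Slc17a7, and those that were lower, Nampt and Epdr1. All 5 genes matched RefSeq promoter records of build GRCm38.p6, each 300 bases long and spanning an annotated start. Dab1 has 2 such starts on chromosome 4 and is not printed. Capitals mark matches, on either strand, to any of AGAACA (a half-site of the corticosteroid response element), CACGTG (an E-box), TTATGTAA (a D-box), TATAAA (the core of a TATA box), GGGCGG (a GC box) or CCAAT. The windows are chr9:24696244-24696543 on the minus strand for Dpy19l2, chr7:45163671-45163970 on the plus strand for Slc17a7, chr12:32820085-32820384 on the plus strand for Nampt and chr13:19619781-19620080 on the minus strand for Epdr1.
Dpy19l2: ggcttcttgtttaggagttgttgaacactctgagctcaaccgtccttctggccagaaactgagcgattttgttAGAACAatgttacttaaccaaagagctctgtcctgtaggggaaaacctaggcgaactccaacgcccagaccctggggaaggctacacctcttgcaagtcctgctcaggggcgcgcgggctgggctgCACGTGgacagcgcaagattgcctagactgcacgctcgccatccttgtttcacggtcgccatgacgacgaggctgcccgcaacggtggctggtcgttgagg
Slc17a7: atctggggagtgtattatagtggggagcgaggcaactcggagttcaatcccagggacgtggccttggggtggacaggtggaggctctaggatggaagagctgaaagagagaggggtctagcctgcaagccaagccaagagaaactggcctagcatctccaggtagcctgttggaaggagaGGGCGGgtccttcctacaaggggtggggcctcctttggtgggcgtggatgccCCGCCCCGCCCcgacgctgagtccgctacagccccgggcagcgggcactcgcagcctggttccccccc
Nampt: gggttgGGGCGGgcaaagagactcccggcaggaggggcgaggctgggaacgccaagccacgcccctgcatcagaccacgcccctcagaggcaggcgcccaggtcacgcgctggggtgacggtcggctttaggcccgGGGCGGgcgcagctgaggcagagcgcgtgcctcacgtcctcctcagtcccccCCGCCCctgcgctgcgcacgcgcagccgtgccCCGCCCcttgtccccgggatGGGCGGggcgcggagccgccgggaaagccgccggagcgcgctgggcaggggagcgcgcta
Epdr1: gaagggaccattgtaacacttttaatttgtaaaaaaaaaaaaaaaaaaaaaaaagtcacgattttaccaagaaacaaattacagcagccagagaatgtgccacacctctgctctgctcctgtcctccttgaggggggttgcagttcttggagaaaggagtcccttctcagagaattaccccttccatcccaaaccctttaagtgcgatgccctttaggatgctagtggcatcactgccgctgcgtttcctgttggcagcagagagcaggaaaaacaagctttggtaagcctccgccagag

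No motif of the 6 was found in all 5 genes. Dpy19l2 held 1 AGAACA and 1 CACGTG, motifs present in 19.0% and 7.15% of 32851 RefSeq mouse promoters. Slc17a7 held 3 matches to GGGCGG, 2 of them overlapping by a base, Nampt held 5 and one of the Dab1 starts held 1, and 35.7% of all promoters held this motif. The other Dab1 start held 1 CCAAT, as did 37.4% of promoters. Epdr1 held none of the 6, and none of the 5 genes held TATAAA (13.6% of promoters) or TTATGTAA (0.938%). The windows differed in base composition, with 56.7% G and C in Dpy19l2, 63.7% in Slc17a7, 76.3% in Nampt, 45.7% in Epdr1 and 77.3% and 57.3% in the Dab1 windows.

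The tissue label was checked against marker genes. All 13 ventricular cardiomyocyte markers were well above background on all 9 arrays. Of these, 8 were saturated in Cy5 on all 9 arrays and Ttn on 5, so their ratios bound the heart signal from below. The 4 that were never saturated (Ryr2, Pln, Actn2 and Kcnj2) had a mean log2 ratio of 1.99 to 2.22 in set A and 2.33 to 2.78 in set B, which did not overlap. Of 14 neuron markers, 9 were well above background on all 9 arrays, with Snap25 brightest at 13554 to 23654 units, 4 were so on some arrays, and Slc17a6 on none. Of 12 germ cell markers, 7 were well above background on all 9 arrays at 76 to 226.5 units, 2 were so on some, and Tnp2, Dazl and Acrv1 on none. Between 64.3% and 70.9% of probes on an array were well above background in Cy5, and the small number of arrays limits the precision of all values.

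Dpy19l2 had the largest set difference of the 5 genes in the deposited ratios, which served to choose it, and the smallest in the normexp and loess values given with its signals. The deposited log2 ratio was 3.96 and 4.17 in aldosterone hearts 3 and 5 and 4.01, 4.92 and 3.18 in untreated hearts 1, 3 and 4, the 5 hearts of set A. It was -0.27, 0.07 and -0.02 in aldosterone hearts 1, 2 and 4 and -0.22 and -0.01 in untreated hearts 2 and 5, the 5 hearts of set B. Every set A heart lay above every set B heart, with a gap of 3.11 between the nearest hearts, and aldosterone and untreated hearts were interleaved. The means were 4.05 ± 0.62 in set A and -0.09 ± 0.15 in set B (SD, n = 5 each), a difference of 4.14. It ranked 1 of the 26871 probes well above background on at least 4 arrays, in ratios whose set B hearts and reference lay near background. In whole ventricle, here and for the other 4 genes, fewer cells of a type and less RNA per cell cannot be told apart.

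The size of the Dpy19l2 difference depended on how its dim signal was handled. The Cy5 signal was 126 and 135 units in aldosterone and 112, 181.5 and 97 units in untreated hearts of set A. In set B it was 63 and 68 units in aldosterone and 59 and 62.5 units in untreated hearts, over a local background of 56 to 62 units. The probe was well above background on all 5 set A arrays and on none of the 4 set B arrays, so it passed the filter through set A alone. The Cy3 signal of the reference was not well above background on any array, so the deposited ratio divides by a value near background. In Cy5 values after loess and Aquantile normalization, Dpy19l2 was 1.86-fold higher in set A, with measured means of 6.83 in set A and 5.94 in set B on the log2 scale. The set B mean comes from signals not well above background, so this fold describes the processed values and is not a bound. No array had the dyes swapped and every heart carried Cy5, so a dye bias of the probe was not tested. With normexp background correction at an offset of 50 units and loess normalization, which compress dim spots, the difference was 0.78 on the log2 scale and ranked 156 of 26871.

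Slc17a7 was measured above background on every array and separated the sets in the same direction. Its log2 ratio was 0.50 and 0.35 in aldosterone hearts 3 and 5 and 0.05, 0.78 and 0.13 in untreated hearts 1, 3 and 4, all in set A. In set B it was -1.80, -2.33 and -1.89 in aldosterone hearts 1, 2 and 4 and -2.10 and -2.47 in untreated hearts 2 and 5. The sets did not overlap, and set A exceeded set B by 2.48, or 5.58-fold, with SDs of 0.29 and 0.28. The Cy5 signal averaged 594 ± 203 units on 5 set A arrays and 136 ± 10.4 units on 4 set B arrays. The Cy3 signal of the reference averaged 285 ± 11.8 units on set A arrays and 283 ± 6.41 units on set B arrays, so the split lay in the heart channel.

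Dab1, read by its brightest probe A_55_P2112892, gave a log2 ratio of 2.21 and 2.35 in aldosterone hearts 3 and 5 and 2.61, 2.85 and 2.31 in untreated hearts 1, 3 and 4. In set B the ratio was 0.48, 0.71 and 0.72 in aldosterone hearts 1, 2 and 4 and 0.72 and 0.65 in untreated hearts 2 and 5. Set A lay above set B throughout, by 1.81 on average (3.51-fold). Its Cy5 signal averaged 2348 ± 806 units on set A arrays (n = 5) and 566 ± 112 units on set B arrays (n = 4).

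The other 3 Dab1 probes did not separate the sets. They were well above background in Cy5 on 3, 1 and 0 of the 9 arrays and did not pass the filter. Their Cy5 signals lay between 59 and 83 units, while the Cy3 signal of A_51_P437135 and of A_52_P392216 was well above background on all 9. Set A minus set B was 0.44 for A_51_P437135, 0.22 for A_52_P392216 and -0.58 for A_55_P2120060 in the deposited ratios, with overlapping sets for each. The set difference of Dab1 therefore rests on 1 of its 4 probes, and probe sequences were not used here to place them on the transcript.

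Nampt ran the other way, lower in set A. Its log2 ratio was 0.48 and 0.45 in aldosterone hearts 3 and 5 and 0.63, 0.53 and 0.60 in untreated hearts 1, 3 and 4 of set A. In set B it was 1.38, 1.51 and 1.43 in aldosterone hearts 1, 2 and 4 and 1.58 and 1.51 in untreated hearts 2 and 5. The sets were apart by 0.75 at their nearest hearts, and the spread inside each was small, with SDs of 0.08 and 0.08. The mean was 0.54 in set A and 1.48 in set B, 1.93-fold lower in set A. The Cy5 signal averaged 2304 ± 298 units on set A arrays (n = 5) and 4490 ± 876 units on set B arrays (n = 4).

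Epdr1 had the pattern of Nampt at a similar size. Its log2 ratio was 0.15 and 0.19 in aldosterone hearts 3 and 5 and 0.14, 0.03 and 0.12 in untreated hearts 1, 3 and 4 of set A. In set B it was 1.17, 1.04 and 1.06 in aldosterone hearts 1, 2 and 4 and 0.93 and 1.01 in untreated hearts 2 and 5. The sets did not overlap, and the mean of 0.13 in set A was 1.89-fold lower than the mean of 1.04 in set B. The Cy5 signal averaged 1339 ± 212 units on set A arrays (n = 5) and 2401 ± 189 units on set B arrays (n = 4).

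**Figure D1:**
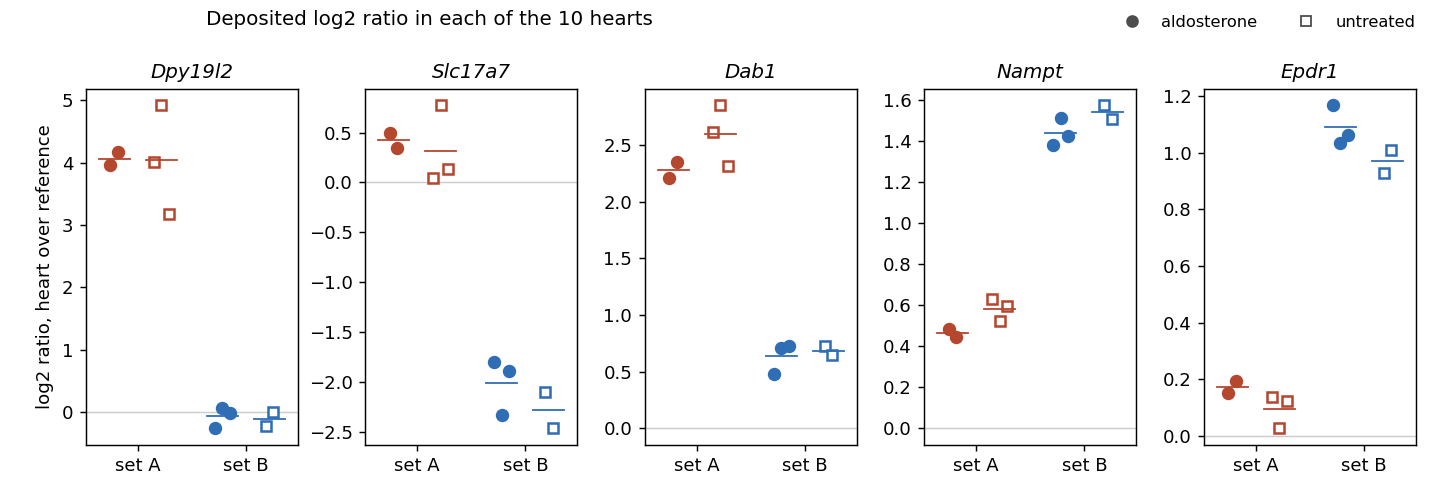
Log2 ratio of heart over reference RNA in the authors' deposited value table, 1 panel per gene with its own vertical axis, for aldosterone (filled circles) and untreated hearts (open squares) of set A (red, left) and set B (blue, right), with a line at the mean of each group. The 5 hearts of set A lie above those of set B for Dpy19l2, Slc17a7 and Dab1 and below them for Nampt and Epdr1.

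The 5 lead probes were non-overlapping between the sets by choice, while 11.6% of the 26871 probes were non-overlapping in the deposited ratios, 7% with set A above and 4.6% with set B above. A difference of at least 1 on the log2 scale with no overlap was found for 0.402% of probes with set A above and for 0.197% with set B above. By size of difference Slc17a7 ranked 18, Dab1 43, Nampt 358 and Epdr1 394 of 26871. In the normexp and loess values of the 9 arrays, Slc17a7 ranked 8, Dab1 10, Nampt 71 and Epdr1 92, and the differences were 1.71, 1.63, -1.05 and -0.95. In those values 11.2% of probes were non-overlapping, 5.25% with set A above and 5.98% with set B above, and 0.108% and 0.0893% were so with a difference of at least 1 in these directions.

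**Figure D2:**
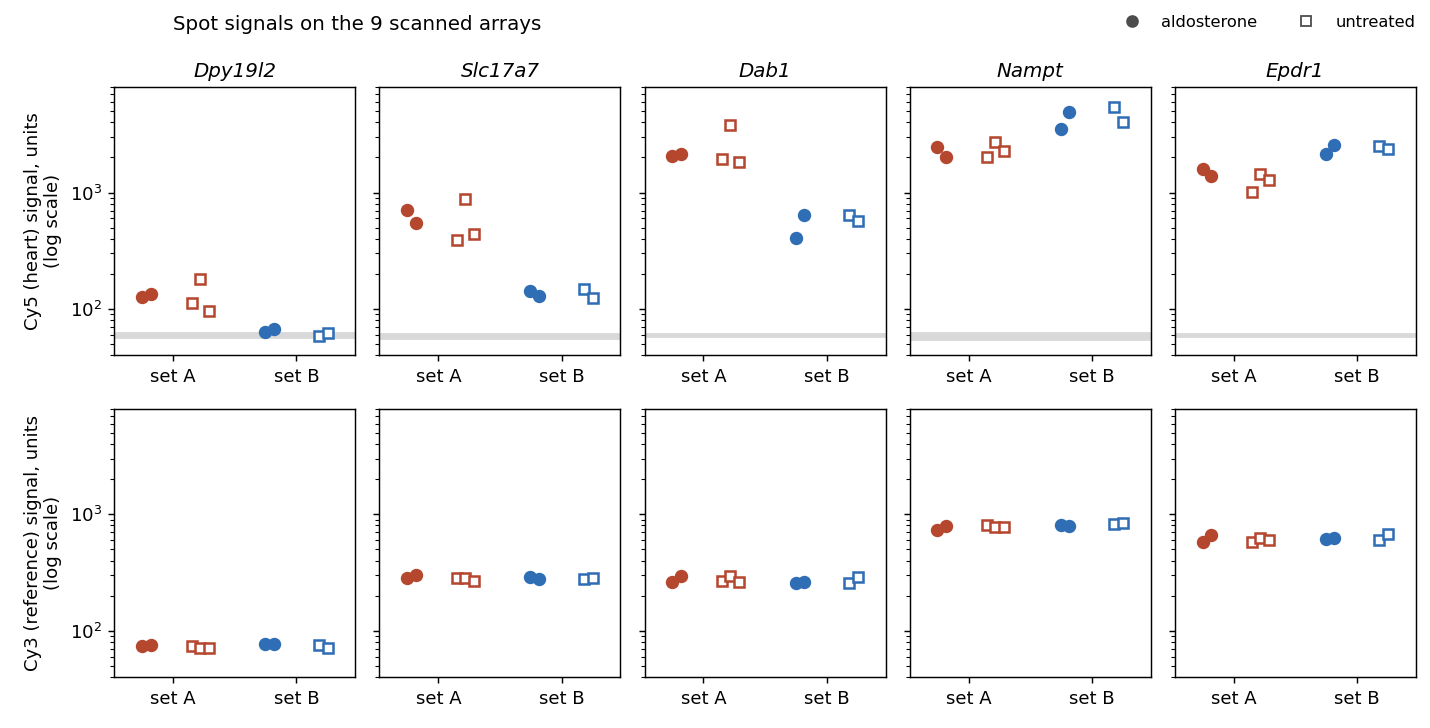
Spot signals in array units on a log scale for the lead probe of each gene, in Cy5 (heart, top) and Cy3 (reference, bottom), on the 9 arrays with scanner files, set A in red and set B in blue; aldosterone arrays are filled circles, untreated arrays open squares, and the grey band is the range of the local Cy5 background. The Cy5 signals separate the sets while the Cy3 signals overlap, and Dpy19l2 in set B lies near background.

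**Figure D3:**
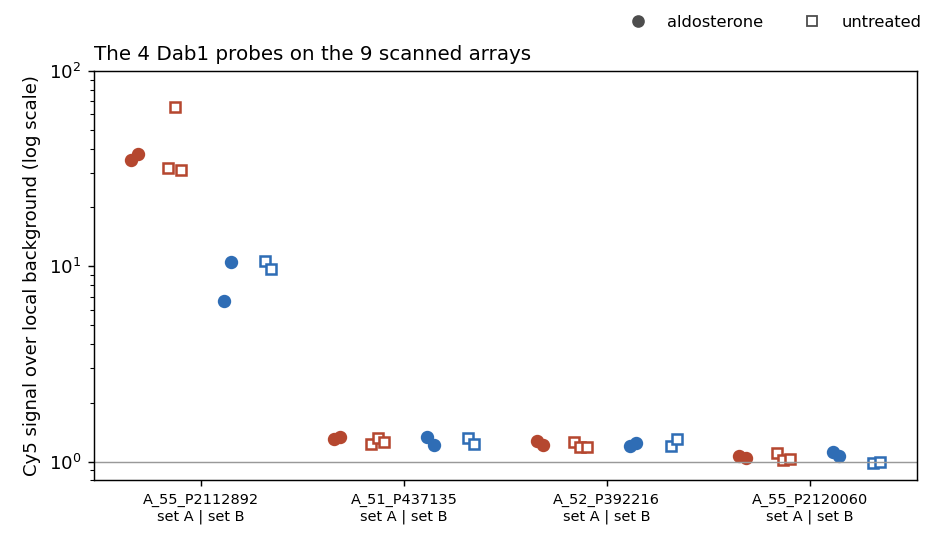
Cy5 signal divided by local background, on a log scale, for the 4 Dab1 probes on 9 arrays, with set A (red) left of set B (blue); aldosterone arrays are filled circles and untreated arrays open squares. Only A_55_P2112892 stands clear of background, at 31.3 to 65.6 times background in set A and 6.68 to 10.6 times in set B.

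Because the 5 genes were chosen for sets that do not overlap, that choice fixed the direction of the difference inside each treatment group, and only its size is described. Among aldosterone hearts, set A minus set B was 4.14 for Dpy19l2, 2.43 for Slc17a7, 1.64 for Dab1, -0.98 for Nampt and -0.92 for Epdr1. Among untreated hearts the same differences were 4.15, 2.60, 1.91, -0.96 and -0.87. The arrays lay on 4 slides, and slides 1, 2 and 4 held arrays of both sets while slide 3 held set A only. Within these 3 slides, in normexp and loess values, the difference was 0.88, 0.87 and 0.90 for Dpy19l2, 1.34, 2.21 and 1.77 for Slc17a7 and 1.75, 1.93 and 1.58 for Dab1. It lay between -1.05 and -1.01 for Nampt and between -1.04 and -0.88 for Epdr1. Slide 1 compares 1 set A array with 2 set B arrays, and slides 2 and 4 compare 1 with 1. On slide 2 the set A array was untreated and the set B array aldosterone, and on slide 4 the reverse. Set and treatment cannot be told apart within slide 2 or slide 4.

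Aldosterone against untreated hearts is the comparison of the study, and none of the 5 genes passed it. In limma, with Benjamini-Hochberg adjustment over 26871 probes, 0 probes passed at an adjusted p under 0.05 (0% of probes; 1638 had an unadjusted p under 0.05). Aldosterone minus untreated was -0.06 (SE 0.26) for Dpy19l2, -0.11 (SE 0.53) for Slc17a7, -0.37 (SE 0.49) for Dab1, 0.00 (SE 0.32) for Nampt and 0.17 (SE 0.29) for Epdr1. The smallest adjusted p among the 5 was 0.999 in limma. The fit holds no term for the sets, so their split counts as spread within each treatment group. The 5 genes were chosen for that split, which favours a large p for them in this fit. In the deposited ratios of all 10 hearts 35 probes passed, 0.13% of 26871, and none belonged to the 5 genes. With slide as a block the differences were -0.12, -0.20, -0.45, 0.07 and 0.22 in the order above, and none passed. On slide 3, the single slide whose aldosterone and untreated arrays came from 1 set, they were 0.05, 0.33, -0.08, -0.10 and 0.06. Leaving out untreated heart 3 or untreated heart 5 gave 12 passing probes, and no probe of the 5 genes passed under any array left out.

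An exact permutation test over all splits of 10 hearts into groups of 5, two-sided, gave p = 0.651 for Dpy19l2, 0.881 for Slc17a7, 0.294 for Dab1, 0.992 for Nampt and 0.214 for Epdr1. The smallest p that this design allows is 0.00794. That value was out of reach for these genes, as they were chosen in these same ratios for non-overlapping sets that cross treatment. The choice favours large p-values and a treatment difference below the SD, so neither is an independent test of aldosterone. The mean log2 ratio of Dpy19l2 was 1.58 ± 2.27 in aldosterone and 2.38 ± 2.36 in untreated hearts (SD, n = 5 each). The other 4 genes likewise had a treatment difference below the SD of either group.

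Inside each set the spread was smaller, which choosing genes whose sets do not overlap favours, and the treatment differences stayed small. One fit with 4 groups, by set and treatment, shared a single estimate of spread over 9 arrays. Inside set A, aldosterone minus untreated was 0.02 for Dpy19l2 (95% interval -0.32 to 0.36), 0.07 for Slc17a7 (-0.33 to 0.47), -0.25 for Dab1 (-0.56 to 0.06), -0.11 for Nampt (-0.30 to 0.09) and 0.12 for Epdr1 (-0.08 to 0.31). Inside set B it was 0.01 for Dpy19l2 (-0.37 to 0.38), 0.05 for Slc17a7 (-0.38 to 0.49), -0.15 for Dab1 (-0.49 to 0.19), -0.10 for Nampt (-0.31 to 0.12) and 0.02 for Epdr1 (-0.20 to 0.23). No interval excluded 0. Dpy19l2 was not above background in set B, so its value there compares arrays without a measured level. In both sets each interval ended short of the size by which that gene differed between the sets in the same values. The genes were chosen for their difference between the sets, so this comparison is a description and not support.

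Over all probes, 1 passed inside set A (0.00372% of 26871), and it belonged to Ccnd1, the cyclin D1 gene, which was higher by 1.19 (SE 0.10) with aldosterone. Without untreated heart 3, 9 probes passed inside set A, and none did without untreated heart 2, 4 or 5 or without aldosterone heart 5. Without aldosterone heart 3 the 1 probe that passed was lower with aldosterone, so the Ccnd1 increase did not pass. Inside set B 0 passed in limma (0%; 1906 at an unadjusted p under 0.05), against 16 without untreated heart 5 and 23 with slide as a block. None of these counts held a probe of the 5 genes. The difference of the aldosterone effect, set A minus set B, was 0.01 (SE 0.23) for Dpy19l2, 0.02 (SE 0.26) for Slc17a7, -0.10 (SE 0.21) for Dab1, -0.01 (SE 0.13) for Nampt and 0.10 (SE 0.13) for Epdr1. In limma 0 of 26871 probes passed for this difference (0%; 1212 at an unadjusted p under 0.05).

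**Figure D4:**
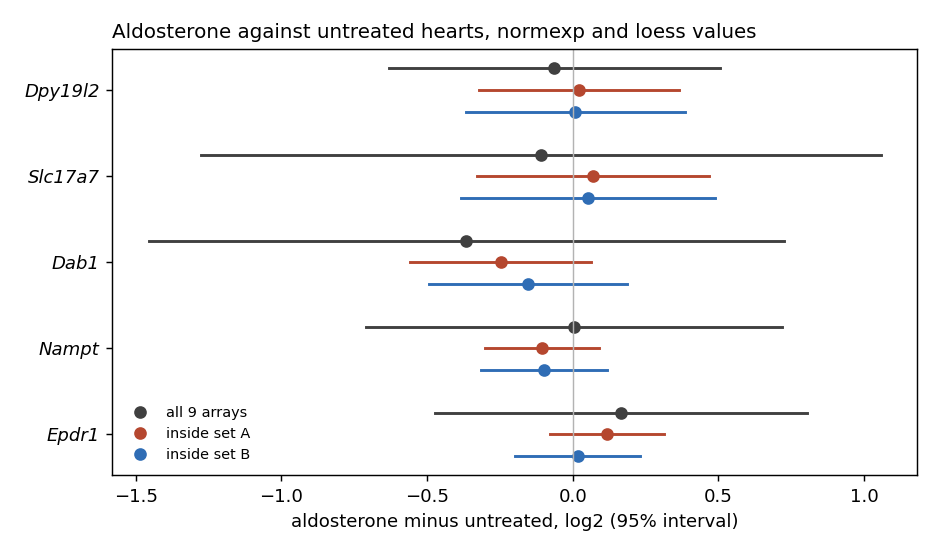
Aldosterone minus untreated on the log2 scale with 95% intervals from limma, for the lead probe of each gene, over all 9 arrays (top line), inside set A (middle) and inside set B (bottom). All intervals span 0, and those inside the sets are narrower than those over all arrays, which the choice of the genes favours.

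The genes closest to each of the 5 over the 10 hearts were ranked by Pearson r, a description that here mostly repeats the split into sets. For Dpy19l2 they were Gnb1l (r = 0.991), Brpf1, Dab1, Tmem189 and Slc35g1 (0.986). For Dab1 they were Brpf1 (r = 0.995), Itga3, Dpy19l2, Sstr5 and Aars2 (0.986). Brpf1, a scaffold of histone acetyltransferase complexes, appeared for both and was 1.19 higher in set A on the log2 scale. Itga3, an integrin subunit that binds reelin in mouse neurons, was 0.60 higher.

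For Slc17a7 the closest genes were Dpy19l1 (r = 0.99), Psmd9, Armc5, Tbc1d10b and Mrpl54 (0.984), and all were between 0.22 and 0.55 higher in set A. For Nampt they were Pygb (r = 0.986), Retreg1, Hmgb1, Cfap20dc and Zfp36l1 (0.98). For Epdr1 they were Tmtc4 (r = 0.984), Pygb, Pkp2, Ahcyl2 and Pdp1 (0.978). Pygb, the brain form of glycogen phosphorylase, stood near both, with a set A minus set B difference of -0.91. The difference was -0.57 for Pkp2, a desmosome protein of cardiomyocytes, and -0.68 for Pdp1, the phosphatase that activates pyruvate dehydrogenase. It was -2.42 for Cfap20dc, which was above background on only 4 of the 9 arrays, so the size of that difference rests partly on signals near background.

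Once the set means were taken off, 7 of the 10 pairs among the 5 genes kept the sign that the split gives them and 3 did not. Over deviations from set means in 10 hearts, r was 0.70 between Dpy19l2 and Dab1, 0.44 between Dpy19l2 and Slc17a7 and 0.14 between Slc17a7 and Dab1. The 0.44 pools 0.77 inside set A with -0.63 inside set B. Nampt stood at -0.64 with Slc17a7 and -0.23 with Dpy19l2, and Epdr1 at -0.66 with Dab1 and -0.32 with Dpy19l2. The 3 pairs of opposite sign were Nampt with Epdr1 at -0.68, Dab1 with Nampt at 0.38 and Slc17a7 with Epdr1 at 0.08. Signs inside sets A and B also differed for Slc17a7 with Dab1 (0.37 and -0.42), Dpy19l2 with Nampt (-0.38 and 0.20) and Slc17a7 with Epdr1 (-0.57 and 0.57). Dpy19l2 had no level above background in set B, which limits its deviations there. Pairs of other genes were not counted in this way. The arrays share a reference, and each value rests on 5 hearts a set, so these are descriptions.

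The genes next to the 5 on their chromosomes were read for the same split. The 3 nearest genes with a probe on each side gave 30 neighbours, of which 23 passed the filter and 6 were non-overlapping (26.1%, against 13.5% of 15226 named genes and 11.6% of all probes). Beside Dpy19l2 on chromosome 9, its family member Dpy19l1 was 0.55 higher in set A, and the 4 other neighbours that passed overlapped. Whether the Dpy19l1 and Dpy19l2 probes bind each other's transcript was not tested. Beside Slc17a7 on chromosome 7, Pih1d1 was 0.32 higher in set A. Beside Dab1 on chromosome 4 no neighbour was non-overlapping.

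On chromosome 12 the 2 nearest genes on one side of Nampt were lower in set A, at -0.40 for Pik3cg, a lipid kinase subunit, and -0.24 for Ccdc71l. Beside Epdr1 on chromosome 13, the difference was -0.76 for Amph, a protein of synaptic vesicle recycling, and 0.18 for Vps41, a tethering factor of lysosomal fusion. It was -1.96 for Nme8, another neighbour of Epdr1, which was above background on 1 of the 9 arrays and did not pass the filter.

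**Figure D5:**
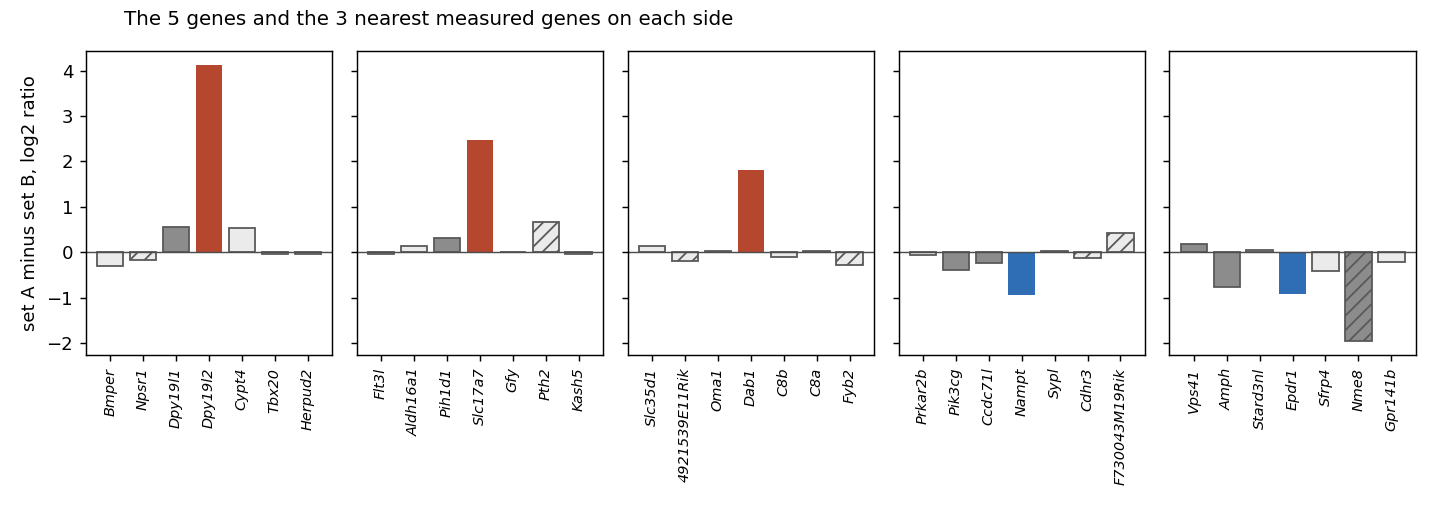
Set A minus set B of the deposited log2 ratio for each of the 5 genes (coloured) and the 3 nearest genes with a probe on each side, in gene order and not to scale along the chromosome; dark bars mark neighbours whose sets do not overlap, light bars overlap, and hatched bars did not pass the filter. The members stand out from their neighbours on chromosomes 9, 7 and 4, and Amph and Nme8 lie near or beyond Epdr1 on chromosome 13.

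The pathways of the 5 genes were read from lists of related genes. No gene of any list passed the limma test of aldosterone against untreated, in either direction. As 0 of 26871 probes passed it (0%), this is no result about the lists. At an unadjusted p under 0.05 there were 2 of 26 genes in the NAD list, 3 of 24 in the reelin list, 0 of 21 in the glutamate list, 0 of 18 in the acrosome list and 2 of 31 in the lysosome list, or 7.69%, 12.5%, 0%, 0% and 6.45%, against 6.98% of 15226 named genes. Of 26 measured genes of NAD synthesis and use other than Nampt, 6 were non-overlapping between the sets (23.1%, against 13.5% of 15226 named genes). Sirt2, Sirt4 and Slc25a51, the mitochondrial NAD carrier, were 0.26, 0.30 and 0.19 higher in set A, and Naprt, Kmo and Sirt3 were lower, at -0.37, -0.22 and -0.28. Sirt3 and Sirt4 are both mitochondrial sirtuins and lay in opposite directions. The median over the list was -0.03, against -0.01 over all named genes.

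Nmrk2, the muscle nicotinamide riboside kinase, had the lowest mean difference of the list at -1.23 in set A against set B, with overlapping hearts; it was picked after its values were seen. The smallest p of the NAD list in limma was that of Nnmt, which methylates nicotinamide, at 0.43 (SE 0.07, adjusted p = 0.141) for aldosterone minus untreated. Sirt7 followed at -0.19 (SE 0.07) and Cd38, an NAD-consuming enzyme of the cell surface, at 0.15 (SE 0.08). The median of the list was 0.01, as it was over all named genes.

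In the reelin list, 5 of 24 measured genes other than Dab1 were non-overlapping (20.8%, against 13.5% of named genes). The reelin receptor gene Vldlr was lower in set A, at -0.81, while Dab1 was higher, and Pik3r1, a regulatory subunit of the lipid kinase that DAB1 engages, was at -0.75. Itga3 was 0.60 higher, Socs7, which promotes DAB1 degradation, 0.50 higher and the adaptor gene Crkl 0.21 higher. The 3 smallest p-values for aldosterone belonged to Nck2 at 0.22 (SE 0.07), Cfl1 at 0.16 (SE 0.06) and Pik3r2 at -0.21 (SE 0.08), with adjusted p-values of 0.592, 0.748 and 0.752 in limma.

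Among 21 measured genes of the SLC17 family and of glutamate handling, 3 were non-overlapping (14.3%), a share near the 13.5% of all named genes. The liver-type glutaminase gene Gls2 was 0.34 higher in set A, and the glutamate transporter gene Slc1a2 and the glutamine transporter gene Slc38a2 were lower, at -0.87 and -0.56. The smallest p-values for aldosterone included those of Glul at 0.32 (SE 0.18) and Slc17a5 at -0.12 (SE 0.08). Slc17a8, another vesicular glutamate transporter gene, overlapped between the sets with a difference of 0.18.

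Of 18 measured genes of the DPY19 family and the acrosome, 1 was non-overlapping (5.56%, below the 13.5% of named genes), and it was Dpy19l1. Dpy19l3 and Dpy19l4 overlapped, with differences of 0.08 and 0.06. Gopc, Pick1 and Zpbp, genes needed for acrosome formation or sperm binding, had the smallest p-values for aldosterone, at 0.13 (SE 0.06), -0.07 (SE 0.05) and 0.09 (SE 0.08). Of 31 lysosomal genes set beside Epdr1, 2 were non-overlapping (6.45%, also below 13.5%), with the peptidase gene Tpp1 0.33 and the sorting receptor gene M6pr 0.23 higher in set A. For aldosterone Glb1 stood at 0.22 (SE 0.09), Scarb2 at 0.31 (SE 0.14) and Tfeb at -0.15 (SE 0.08), and none passed.

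Markers of other cell types were read beside the split. Of the 11 neuron markers and 7 germ cell markers that passed the filter, 0 were non-overlapping between the sets, against 13.5% of named genes. The mean was lower in set A for 7 of the 11 neuron markers and for all 7 germ cell markers, with medians of -0.03 and -0.12, against -0.01 over all named genes. The summed Cy5 signal of the neuron list lay between 17128 and 28562 units in set A and between 17715 and 26038 units in set B. For germ cell markers it lay between 350.5 and 523 units in set A and between 403.5 and 547.5 units in set B. Of 10 nerve and Schwann cell markers 1 was non-overlapping, Dbh, the enzyme of noradrenaline synthesis, lower in set A at -0.97.

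Of the 7 atrial markers, Myl4 was 0.58 and Stard10 0.45 higher in set A without overlap (28.6%, against 13.5% of named genes). The other 5 overlapped and had a lower mean in set A, and the median of the list was -0.05. The summed Cy5 signal of the atrial list lay between 26292 and 68553 units in set A and between 28381 and 67132 units in set B, mostly from Nppa, which was saturated on 4 arrays. Of 13 ventricular markers, Ryr2, the calcium release channel, was at -0.99 and Pln, which restrains the calcium pump, at -0.63 in set A minus set B. Mybpc3 was also non-overlapping, but it was saturated in Cy5 on all 9 arrays and gives no difference of the heart signal. All 11 macrophage markers had a lower mean in set A, with a median of -0.46 and a range down to that of Cx3cr1, and their summed Cy5 signal lay between 9585 and 15534 units in set A and between 11203 and 17987 units in set B. The hearts overlapped for 10 of these 11, and Mrc1, at -0.46, was non-overlapping. All 14 fibroblast markers, with a median of -0.20, and 14 of 15 lymphocyte markers, with a median of -0.11, also had a lower mean in set A, with overlapping hearts for each. The median over all named genes was -0.01. Set B holds 3 aldosterone hearts and set A 2. Median aldosterone minus untreated was 0.38 for fibroblast, 0.11 for macrophage and -0.07 for lymphocyte markers, against 0.01 over all named genes. The part of this imbalance in the lower means was not tested. The pericyte gene Rgs5 and the adipocyte gene Pparg were lower in set A without overlap, at -0.20 and -0.24. Each was alone in its list of 10 (10%, against 13.5% of named genes). Of the adipocyte markers 6 had a higher and 4 a lower mean in set A, with a median of 0.04. Of the smooth muscle and pericyte markers 2 had a higher and 8 a lower mean, with a median of -0.14. The lists for fibroblasts, endothelium, lymphocytes, red blood cells, skeletal muscle, epicardium and sex had no non-overlapping gene. The part of these cell types in the split of the 5 genes was not tested.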

How the data were processed

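Per the labels, ventricle RNA of 5 aldosterone and 5 untreated male mice was hybridised in Cy5 against a pooled Cy3 reference, and each sample is named as its own mouse. Spot intensity came from the authors' deposited scanner files of 9 arrays, which the submitters' processing notes credit to Agilent Feature Extraction (version 10.7.3.1). The scanner's own ratio, Cy5 to Cy3, is a log10 value per the file headers, and log2 was taken from it. A log2 ratio for each probe and all 10 hearts stands in the authors' deposited table. It correlated with the scanner's ratios at 0.996 to 1.00, and 82.7% to 86.6% of probes lay within 0.001. Scale and direction are thus known for 9 columns, and for aldosterone heart 4 they were taken to be the same. No centring was seen. Column medians were 0.04, 0.08, 0.11, -0.01 and 0.04 for aldosterone hearts 1 to 5 and 0.06, 0.06, 0.12, 0.02 and 0.02 for untreated hearts 1 to 5.

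Median signals were corrected by normexp (offset 50), with local backgrounds over 20 units from an array's median replaced by that median, and normalized by loess (R 4.3.3, limma 3.58.1). Control spots and 1667 outlier spots were left out, and spots of a probe were averaged. Probes well above background in Cy5 on at least 4 of 9 arrays were kept (26871 of 39429). RefSeq accessions named 26581 probes. Two-sided limma fits were checked on simulated data; their p-values were adjusted by Benjamini-Hochberg over the kept probes, with a threshold of 0.05. Single values were tested by exact permutation of hearts. The sets are not in the labels, and p-values from inside them are conditional on sets drawn from these data.

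The 5 genes, the sets and all gene lists were chosen with earlier results of these data known. Named genes were the 5 genes with all probes, the 5 genes of highest r with each, the 3 nearest genes on each side in the RefSeq order, the 3 genes of smallest p in each pathway list and defining markers. One gene that this rule names is not reported here. Non-overlapping genes of the lists, Nmrk2 and Ccnd1 were named after their values were seen. Arrays of 1 slide share their scan, so slide and scan form a single batch. Aldosterone arrays lay at position 2 of a slide and untreated arrays at positions 1 or 4, so position and treatment cannot be told apart. Alternatives were other background corrections, normalizations, filters, blocks and leaving out each array.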

Additional observations from a re-analysis of the deposited data

Results flagged for a closer look

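Hearts standing apart were looked for in 32 groups of 5 hearts, each gene's probes within a treatment group or a set, by the distance of the extreme heart to its nearest neighbour over the group's range, against a critical value of 0.71. Chance passes about 1 group in 20. Dab1 probe A_51_P437135 stood at -3.85 on untreated heart 5, apart from the other untreated hearts, with a gap of 0.713 of the range. Dab1 probe A_52_P392216 stood at -3.34 on untreated heart 3, apart from the other hearts of set A, with a gap of 0.738 of the range. Both spots were not well above background in Cy5 on the array in question. No lead probe of the 5 genes met this criterion.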

How the results depend on the processing

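The split of the sets kept its direction for all 5 genes under each alternative run and each array left out, a direction that the choice of these genes fixes. Set A minus set B was 0.78 for Dpy19l2, 1.71 for Slc17a7, 1.63 for Dab1, -1.05 for Nampt and -0.95 for Epdr1 as processed here. It was 4.14 for Dpy19l2, 2.48 for Slc17a7 and -0.95 for Nampt in the deposited ratios, and 4.03, 2.54 and 1.83 for Dpy19l2, Slc17a7 and Dab1 in the scanner's ratios. With median centring it was 1.01, 2.03, 1.94, -0.90 and -0.82 for the 5 genes in the order above, and in the Cy5 channel alone 1.02, 1.99 and 1.92 for the first 3. Leaving out 1 array gave 0.73 to 0.84, 1.62 to 1.78, 1.55 to 1.69, -1.08 to -0.99 and -0.98 to -0.91 in that order.

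For aldosterone minus untreated, 35 probes passed in the deposited ratios, 8 in the scanner's ratios, 6 with heart set as a term and 0 to 12 with 1 array left out (12 without untreated heart 3 or 5). Inside set A the single passing probe was lost (0 probes) in the deposited ratios, the scanner's ratios, with stray backgrounds kept, with an offset of 16, with median centring and with slide as a block, and 0 to 9 passed with 1 array left out. Inside set B 23 passed with slide as a block and 0 to 16 with 1 array left out. For the difference between the sets 0 to 2 passed with 1 array left out. The causes were not tested.

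No probe of the 5 genes passed in any fit, so the sign changes that follow are of differences near 0. Over all arrays, aldosterone minus untreated became 0.051 for Dpy19l2 and -0.018 for Nampt with stray backgrounds kept, and -0.011 in the scanner's ratios and -0.0066 with median centring for Nampt. With heart set as a term it became 0.015 for Dpy19l2, 0.062 for Slc17a7 and -0.10 for Nampt. Inside set A Dpy19l2 became -0.033 with no background correction and -0.013 with median centring. Inside set B Dpy19l2 became -0.023 and Slc17a7 -0.13 with slide as a block. The difference between the sets became -0.011, -0.17 and -0.041 for Dpy19l2, Slc17a7 and Epdr1 in the deposited ratios, and -0.0025, -0.12 and -0.054 in the scanner's ratios. It became -0.075 for Dpy19l2 with no background correction, -0.048 with median centring, and -0.11 for Slc17a7 with stray backgrounds kept. With slide as a block it became 0.29 for Dab1, 0.18 for Nampt and -0.014 for Epdr1.

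With 1 array left out, values over all arrays ran from -0.26 to 0.11 for Dpy19l2, -0.43 to 0.24 for Slc17a7, -0.65 to -0.07 for Dab1, -0.19 to 0.20 for Nampt and -0.014 to 0.32 for Epdr1. Inside set A they ran from -0.17 to 0.21, -0.033 to 0.26, -0.37 to -0.13, -0.12 to -0.09 and 0.07 to 0.16 in the same order. Inside set B they ran from -0.12 to 0.14, -0.13 to 0.24, -0.27 to -0.04, -0.23 to 0.034 and -0.080 to 0.11. For the difference between the sets they ran from -0.18 to 0.20, -0.17 to 0.20, -0.22 to 0.020, -0.14 to 0.12 and 0.01 to 0.20.

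No label pairs hearts by sample number, and the values could not decide whether the numbers do. Deviations of same-numbered hearts from their group means correlated at 0.01, 0.15, 0.27, -0.14 and -0.21 for numbers 1 to 5. Only 2 of 5 aldosterone hearts were closest to their own number. The sets were not taken off, and numbers 2 and 3, with the highest values, are those whose hearts share a set. With the replicate number as a block 2 probes passed, and Slc17a7 stood at 0.018 and Nampt at -0.10.

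The sets came from these data, so inside them the tests rest on 2 to 3 arrays a group. Dpy19l2 in set B and the 3 dim Dab1 probes have no level above background, which limits what their ratios show. Aldosterone heart 4 entered through the deposited ratios alone.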
